A study of Sus scrofa with 50 samples.

Results

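The lymph libraries of Korean minipigs of the ET type were set against those of the L type. Of the 50 libraries of the series, the 10 whose library name ends in lymph were taken, and 9 of these entered the comparison. The ET libraries are those of 4 animals, S0242, S0276, S0309 and S0326. The L libraries are those of 5 animals, numbered S0349, S0355, S0377, S0384 and, last, S0385. The lymph library of the remaining ET animal, S0235, carried kidney transcripts and was left out. Korean minipigs are small-bodied pigs (Sus scrofa); the labels give the types by the letters ET and L with no further meaning. Genotype, treatment, age and sex are not stated, and they call the tissue lymph without naming a node or a site. Every animal also gave backfat, brain, loin and tenderloin. The question was how RNA levels in this tissue differ between the types.

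Lymph nodes filter the lymph and bring lymphocytes together with antigen. T cells gather around stromal cells that make the chemokines CCL19 and CCL21, B cells gather in follicles that make CXCL13, and activated B cells divide and mutate their antibody genes in germinal centres. Macrophages and dendritic cells take up and present antigen, and plasma cells secrete antibody. In pigs the follicles lie towards the middle of the node, the reverse of the arrangement in mice and humans.

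The values are TPM, a share of the transcripts of a library corrected for transcript length. Genes were counted as Swiss-Prot entries: the TPM of all assembled transcripts whose best protein match was a given entry were summed. This gave 17552 entries over the series, of which 14245 had a mean of at least 1 TPM in the 9 lymph libraries and were tested. Entries of the same gene from other species were kept apart, so that 1 pig gene can be divided between entries. The number of reads behind a library is unknown, and precision rests on the spread between animals. Each animal gave 1 lymph library, so the tests measure the spread between animals. In bulk tissue fewer cells of a type and less RNA per cell cannot be told apart.

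The libraries carried the markers of a lymph node. The T cell receptor subunit gene CD3E was at 503, 633, 628 and 523 TPM in ET S0242, S0276, S0309 and S0326, against 447, 576, 423, 750 and 406 TPM in L S0349, S0355, S0377, S0384 and S0385. The B cell receptor subunit gene CD79A was at 266 to 379 TPM in ET and at 221 to 654 TPM in L. CCL21 ranged from 1310 to 2641 TPM in ET and from 1662 to 4652 TPM in L, CCL19 from 894 to 2225 TPM in ET and from 1313 to 2338 TPM in L, and CXCL13 from 398 to 536 TPM in ET and from 231 to 706 TPM in L. Each of these ranges overlapped between the types. The macrophage gene C1QA was at 228 to 388 TPM in ET and at 271 to 629 TPM in L. Markers of other tissues were low. The adipocyte gene ADIPOQ stayed at or under 0.0238 TPM in ET and at or under 0.0775 TPM in L, and the neutrophil gene S100A8 at or under 0.957 TPM in ET and at or under 3.23 TPM in L. No entry carried the thymocyte markers RAG1 or DNTT. The muscle creatine kinase gene CKM was at 10.5 TPM in ET S0242 and at or under 2.21 TPM in the other 8 libraries.

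**Figure D1:**
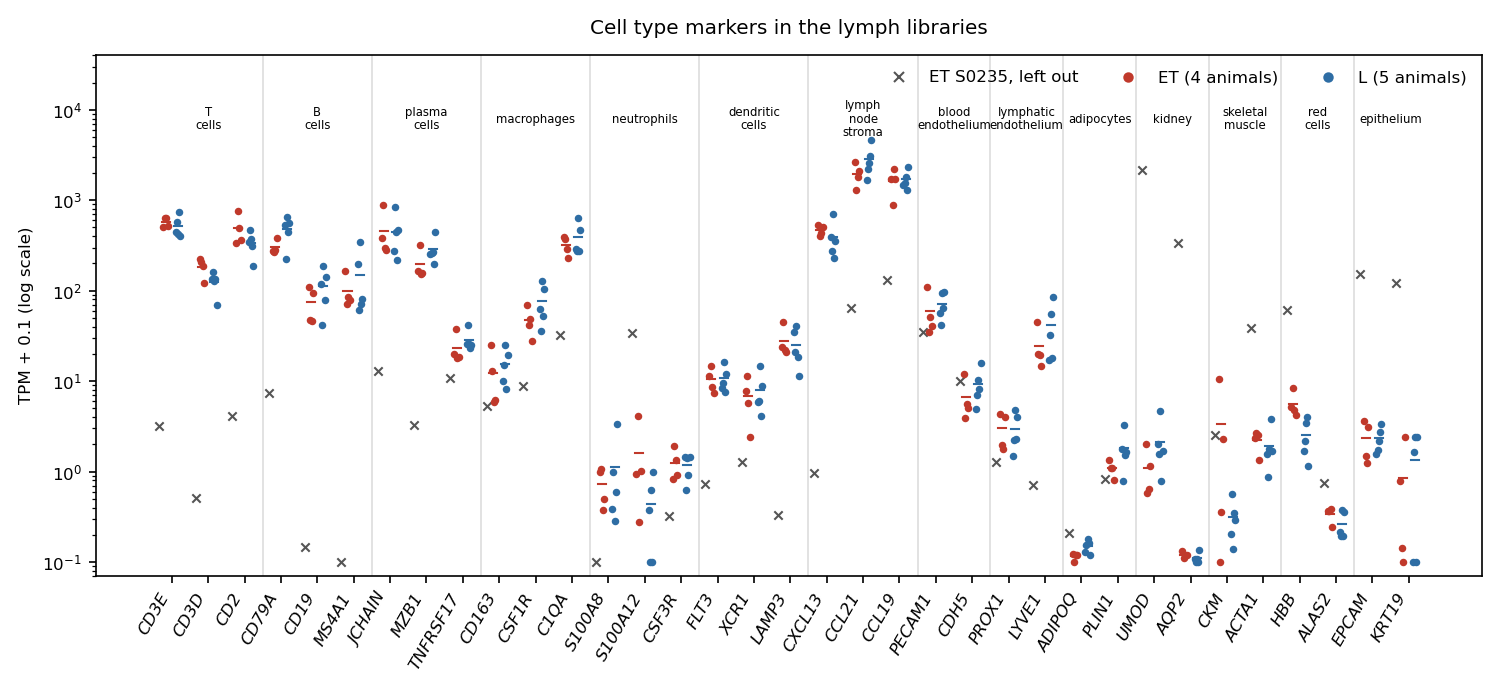
TPM plus 0.1 on a log axis for the cell type marker genes in each lymph library, grouped by cell type. Red points are the 4 ET animals, blue points the 5 L animals, short lines the group means, and grey crosses the library of ET S0235 that was left out. T cell, B cell, macrophage and stromal markers are high in the 9 libraries of both types, and the kidney markers UMOD and AQP2 are high in S0235.

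The library of S0235 stood apart from the other lymph libraries. Its log2 values correlated with theirs at r = 0.566 to 0.650 across genes, while the 9 others correlated with each other at 0.923 to 0.966 within a type and at 0.901 to 0.971 between an ET and an L animal. The 21 matched kidney marker genes summed to 10297 TPM in S0235, against 20.0 to 37.9 TPM in the other ET libraries and 18.3 to 37.5 TPM in the L libraries. The collecting duct water channel gene AQP2 was at 337 TPM in S0235 and at or under 0.0370 TPM in the rest.

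The make-up of the libraries overlapped between the types. Genes at 1 TPM or more numbered 13811 ± 287 in ET and 14120 ± 463 in L (SD, n = 4 and 5). The 10 most abundant genes took 13.6% ± 0.79 of the TPM in ET and 12.3% ± 2.29 in L. Transcripts without a used protein match took 14.8% ± 1.74 in ET and 16.8% ± 2.30 in L. Immunoglobulin entries, whose near-identical members can be divided between entries, took 1.40% ± 0.51 in ET and 2.06% ± 0.98 in L. Two-sided exact permutation tests gave p = 0.317, 0.349, 0.238 and 0.302 for these 4 measures, each with an adjusted p of 0.349; the smallest p that 4 against 5 animals allow is 0.0159.

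No gene passed the test between ET and L lymph at an adjusted p under 0.05. With limma, 0 of 14245 genes (0% called) passed, and 586 had an unadjusted p under 0.05. Of these, 121 had a higher mean in ET (0.849% of the genes tested) and 465 a lower one (3.26%). The smallest adjusted p by limma was 0.0580. The median log2 difference, ET minus L, over all genes tested was -0.10, and 63.1% of the genes had a difference below 0. That median was -0.011 with median-ratio scaling, -0.009 without L S0377 and -0.166 without L S0355. The list medians below come from the fit without such scaling unless another setting is named. The data bound the differences of log2(TPM + 1) for most genes. For 11308 genes, 79.4% of those tested, the 95% interval of the difference lay within 1 log2 unit on either side of 0. That is a change of 2-fold in TPM + 1, and of more than 2-fold in TPM for entries of few TPM. The median spread between animals of a type was 0.36 log2 units, and the median standard error of a difference was 0.24 log2 units. Genes with a difference beyond 1 log2 unit in either direction numbered 108.

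The 5 entries with the smallest p that were lower in ET were PLEKHF1, TTYH2, CNEP1R1, GATD1 and MAP2K4. PLEKHF1, a protein of endosomes and lysosomes that bears a PH and a FYVE domain, was at 1.59, 1.73, 1.88 and 0.992 TPM in ET S0242, S0276, S0309 and S0326, against 8.70, 5.84, 9.10, 7.75 and 13.7 TPM in L S0349, S0355, S0377, S0384 and S0385. Every ET library lay below every L library, and the log2 difference was -1.94 with a standard error of 0.25 (limma adjusted p = 0.0580). A second entry of the same name held 2.67 TPM on average over the 9 libraries, and with both merged the log2 difference was -0.92 ± 0.26 (SE, limma adjusted p = 0.886). With 1 transcript taken per gene it was -3.06 (limma adjusted p = 0.0011).

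The entry of TTYH2, a chloride channel family member, was at 0.308, 0.0789, 2.85 and 0 TPM in the ET libraries, against 13.1, 2.99, 12.4, 18.6 and 14.4 TPM in the L libraries. The groups did not overlap, although ET S0309 and L S0355 lay close together. Its log2 difference was -2.95 ± 0.49 (SE, limma adjusted p = 0.358). The more abundant TTYH2 entry, picked after its values were seen, was at 22.2 to 43.5 TPM in ET and at 17.6 to 78.4 TPM in L, and with both merged the difference was -0.49.

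CNEP1R1, a regulatory subunit of a nuclear envelope phosphatase, was at 0.496 to 1.17 TPM in ET and at 2.49 to 4.40 TPM in L, with a log2 difference of -1.27. GATD1 was at 1.68 to 2.79 TPM in ET and at 4.72 to 8.22 TPM in L, with a log2 difference of -1.13. MAP2K4, a kinase of the stress-activated JNK pathway, was at 0.168 to 2.47 TPM in ET and at 3.92 to 6.49 TPM in L, with a log2 difference of -1.68. None of these 3 passed in limma. Other entries of the same names were more abundant, with 27.4 TPM on average for CNEP1R1, 42.2 TPM for GATD1 and 7.77 TPM for MAP2K4, and with the entries merged the differences were 0.25 for CNEP1R1, -0.26 for GATD1 and -0.06 for MAP2K4. CNEP1R1 was the 1 of the 3 whose direction turned.

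The 5 entries with the smallest p that were higher in ET were IFITM3, CNK3/IPCEF1, KLF12, a polyubiquitin entry and HBB, each with an adjusted p of 0.903 by limma. CNK3/IPCEF1, a scaffold of Ras and ARF6 signalling, was at 29.4, 38.6, 20.8 and 21.1 TPM in ET S0242, S0276, S0309 and S0326, against 12.1, 16.3, 17.6, 13.9 and 8.86 TPM in L S0349, S0355, S0377, S0384 and S0385. All ET libraries lay above all L libraries, with a log2 difference of 0.94 ± 0.25 (SE). The polyubiquitin entry was at 1427 to 1705 TPM in ET and at 737 to 1395 TPM in L. KLF12, a transcriptional repressor, was at 2.86 to 5.18 TPM in ET and at 0.964 to 2.25 TPM in L, a log2 difference of 0.82. A second KLF12 entry held 3.05 TPM on average, and with both merged the difference was 0.70. The haemoglobin subunit gene HBB, an indicator of red cells, was at 4.12 to 8.32 TPM in ET and at 1.07 to 3.95 TPM in L, with a log2 difference of 0.98. The second red cell marker, ALAS2, was at or under 0.283 TPM in ET and at or under 0.278 TPM in L; the part of blood in other differences was not tested. The IFITM3 entry, an antiviral membrane protein with close relatives in pigs, was at 1.79 to 7.42 TPM in ET and at 0.311 to 1.41 TPM in L. Its log2 difference was 1.23. A second IFITM3 entry held 149.5 TPM on average, and with both merged the difference was 0.24.

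**Figure D2:**
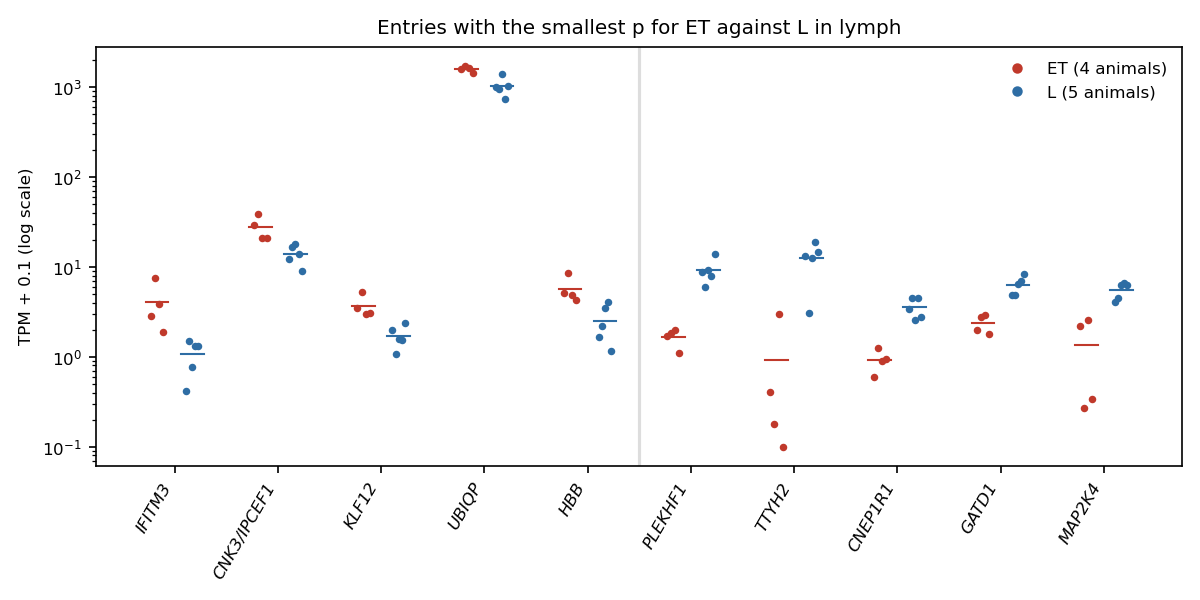
TPM plus 0.1 on a log axis for the 5 entries with the smallest p that were higher in ET (left of the grey line) and the 5 that were lower (right of it). Red points are the 4 ET animals, blue points the 5 L animals and lines the group means. No entry passed the adjusted test, the nearest being PLEKHF1 at 0.0580.

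T cell genes lay on one side of 0, within the spread between animals. Of 28 genes of the T cell receptor, its coreceptors and signalling, 27 were tested and 0 passed in limma; 4 had an unadjusted p under 0.05, all with a higher mean in ET, where 0.849% of all genes tested did. The difference was above 0 for 26 of the 27, with a median of 0.35 log2 units, against -0.10 over all genes tested. CD3G, a signalling chain of the receptor, was at 619, 931, 641 and 717 TPM in ET S0242, S0276, S0309 and S0326, against 571, 838, 331, 537 and 192 TPM in L S0349, S0355, S0377, S0384 and S0385. The groups overlapped, with the 2 lowest values in L S0385 and S0377, and the log2 difference was 0.71 (95% interval -0.05 to 1.46). CD3D was at 123 to 223 TPM in ET and at 68.8 to 159 TPM in L, and THEMIS, which tunes receptor signals in thymocytes, at 7.499 to 12.3 TPM in ET and at 3.14 to 8.48 TPM in L. Summed over the list, ET libraries held 4563 to 6370 TPM and L libraries 2864 to 5701 TPM. L S0384 had the highest value for 10 of the 27 genes, and for 8.64% of all genes tested. ET S0276 was highest for 8 and ET S0309 for 6, against 14.3% and 3.38% of all genes tested. THEMIS was picked after its values were seen. No member had all ET libraries above all L libraries, as 0.253% of all genes tested did.

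CD4 and CD8A, the coreceptors of helper and cytotoxic T cells, overlapped between the types. CD4 was at 42.0 to 76.3 TPM in ET and at 37.9 to 81.8 TPM in L, a log2 difference of 0.15 (95% interval -0.42 to 0.72). CD8A was at 49.1 to 162.9 TPM in ET and at 42.2 to 124 TPM in L, a difference of 0.03 (95% interval -0.72 to 0.79). CD4 and CD8A were picked after their values were seen. Of the 15 cytotoxic and natural killer cell genes tested 0 passed, 11 had a difference above 0 and the median was 0.22. Their 2 most abundant members were the Fc receptor gene FCGR3A, at 353 to 823 TPM in ET and at 351 to 735 TPM in L, and the granzyme gene GZMH, at 301 to 613 TPM in ET and at 161 to 499 TPM in L. Without ET S0276 the median of this list was -0.10. Among regulatory and exhausted T cell genes 0 of 12 passed, with a median of -0.01, and PDCD1, the checkpoint receptor PD-1, was highest in L S0377 at 63.5 TPM and L S0349 at 36.5 TPM, against 14.6 to 18.9 TPM in ET and 12.1 to 15.9 TPM in the other L libraries.

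B cell genes lay on the other side. Of 21 genes tested 0 passed, all 21 had a difference below 0 and the median was -0.49 log2 units; 3 had an unadjusted p under 0.05, where 3.26% of all genes tested were at such a p with a lower mean in ET. CD79A was at 274, 266, 283 and 379 TPM in ET S0242, S0276, S0309 and S0326, against 532, 221, 654, 450 and 558 TPM in L S0349, S0355, S0377, S0384 and S0385. L S0355 lay below every ET library, and the other 4 L libraries above every one; the log2 difference was -0.61 (95% interval -1.21 to -0.01). CD79B, its partner chain, was at 132 to 248 TPM in ET and at 130 to 433 TPM in L. VPREB3, a surrogate light chain relative made by B cells and picked after its values were seen, was at 55.4, 13.96, 22.6 and 38.2 TPM in ET, against 145, 49.2, 101, 31.8 and 135 TPM in L, with a log2 difference of -1.43 ± 0.47 (SE, limma adjusted p = 0.903). The CD20 gene MS4A1 was at 71.5 to 167 TPM in ET and at 60.5 to 343 TPM in L. Summed over the list, the libraries held 1109 to 2007 TPM in ET and 960 to 3729 TPM in L, and L S0377 had the highest value for 18 of the 21 genes. That library had the highest value for 38.4% of all genes tested. The median of the list was -0.28 without L S0377 and -0.74 without L S0355.

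**Figure D3:**
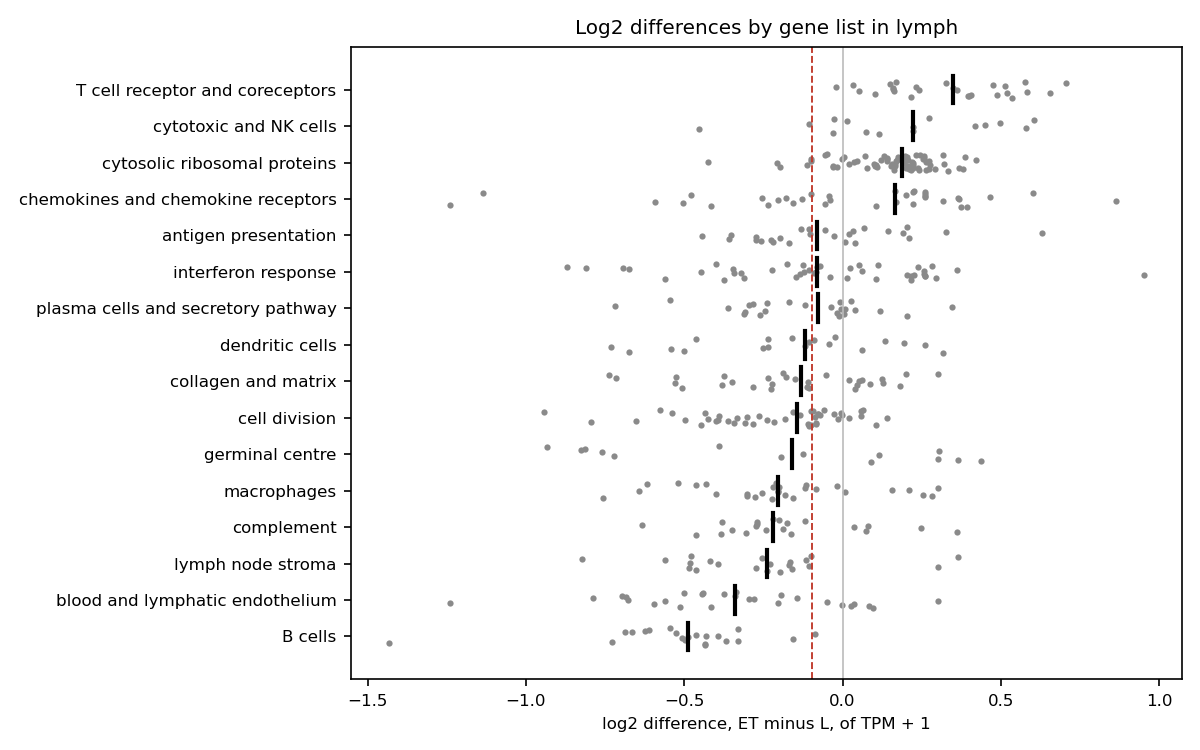
Log2 difference, ET minus L, for each tested member of 16 gene lists (grey points), with the list median as a black bar. The dashed red line marks the median of all genes tested, -0.10. T cell genes lie mostly right of 0 and B cell genes left of it, and none of the genes passed the test.

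Germinal centre and cell division genes were highest in the same pair of L animals, S0349 and S0377, which held the top value for 12 of 14 and 44 of 46 genes, and for 45.7% of all genes tested. Of 14 germinal centre genes tested 0 passed, with 8 below 0 and a median of -0.16, which was 0.01 without L S0349 and 0.03 without L S0377. S1PR2, a receptor that confines B cells to germinal centres, was at 16.7, 4.996, 4.58 and 5.01 TPM in ET S0242, S0276, S0309 and S0326, against 42.4, 7.08, 38.7, 4.83 and 4.89 TPM in L S0349, S0355, S0377, S0384 and S0385. L S0349 and L S0377 lay above every ET library, and the other 3 L libraries lay within the ET range. The transcription factor gene BCL6 was at 37.9 TPM in L S0349 and 37.5 TPM in L S0377, against 12.1 to 18.4 TPM in ET and 10.4 to 12.1 TPM in the other L libraries. S1PR2 and BCL6 were picked after their values were seen.

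Of the 46 cell division genes tested 0 passed, 40 had a difference below 0 and the median was -0.15. L S0349 had the highest value for 38 of them and L S0377 for 6, against 7.35% and 38.4% of all genes tested. The proliferation antigen gene MKI67 was at 30.8, 33.4, 34.2 and 31.3 TPM in ET S0242, S0276, S0309 and S0326, against 94.3, 43.6, 91.2, 30.8 and 23.5 TPM in L S0349, S0355, S0377, S0384 and S0385. The topoisomerase gene TOP2A was at 17.4 to 41.0 TPM in ET and at 8.80 to 69.9 TPM in L, with its 2 highest values in L S0349 and S0377 and its 2 lowest in L S0384 and S0385. For both genes, picked after their values were seen, the ET range lay within the L range. The list summed to 1285 to 1540 TPM in ET and to 843 to 2723 TPM in L. MYBL2, a transcription factor of dividing cells picked after its values were seen, was the member with no overlap, at 18.8 to 21.7 TPM in ET and at 21.8 to 64.1 TPM in L. It was 1 of 46 members, where 0.583% of all genes tested had every ET library below every L library. The PCNA gene was at 99.5 to 130 TPM in ET and at 61.7 to 202 TPM in L. Without L S0349 the list median was 0.05, and without L S0385 it was -0.41.

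Plasma cell genes were highest in animals of both types. Of 24 genes of plasma cells and their secretory pathway tested 0 passed, and the median was -0.08. JCHAIN, which joins antibody units, was at 383, 883, 293 and 279 TPM in ET S0242, S0276, S0309 and S0326, against 272, 832, 446, 217 and 471 TPM in L S0349, S0355, S0377, S0384 and S0385. ET S0276 and L S0355 were the high libraries, and the log2 difference was 0.03. The plasma cell chaperone gene MZB1 was at 155 to 322 TPM in ET and at 199 to 448 TPM in L. Immunoglobulin entries summed to 10240 to 21457 TPM in ET and to 11650 to 34764 TPM in L, with L S0385 highest.

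Myeloid and antigen presentation genes gave no call. Of 29 macrophage genes tested 0 passed, 23 had a difference below 0 and the median was -0.21. L S0377 had the highest value for 15 of them (51.7%), where it had the highest value for 38.4% of all genes tested. The list median was -0.04 without L S0377, -0.09 without ET S0326 and -0.33 without L S0355. C1QC, a subunit of the first complement component, was at 472 to 1011 TPM in ET and at 576 to 1400 TPM in L. The CSF1 receptor gene CSF1R was at 28.0 to 69.1 TPM in ET and at 36.0 to 127 TPM in L. Of 19 dendritic cell genes 0 passed (median -0.12), of 8 neutrophil genes 0 (median -0.25) and of 4 mast cell and eosinophil genes 0 (median -0.06). The most abundant of these 4, at 82.3 TPM on average, was an entry of the headcase protein homolog, matched by its name HDC. It is not a mast cell marker, so the median of that list does not describe mast cells and eosinophils alone. The transcription factor gene IRF8 was at 146 to 192 TPM in ET and at 146 to 369 TPM in L, and CCR7, the receptor for CCL19 and CCL21, at 184 to 260 TPM in ET and at 121 to 273 TPM in L. Of 26 antigen presentation genes 0 passed, with a median of -0.08; B2M was at 3907 to 5558 TPM in ET and at 3309 to 4187 TPM in L. The class II gene SLA-DQA1, whose near-identical relatives can share its reads, was at 2435 to 4946 TPM in ET and at 1673 to 4324 TPM in L.

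Stromal and vessel genes were mostly below 0. Of 21 genes of lymph node stroma tested 0 passed and 19 had a difference below 0, with a median of -0.24. Of 27 endothelial genes 0 passed and 22 had a difference below 0, with a median of -0.34. L S0385 had the highest value for 18 of the 27 (66.7%), where it had the highest value for 17.0% of all genes tested. Without that library the median was -0.16. ACKR1, a chemokine-binding receptor of venules picked after its values were seen, was at 11.4, 4.34, 9.16 and 6.95 TPM in ET S0242, S0276, S0309 and S0326, against 14.9, 13.9, 10.8, 23.01 and 49.3 TPM in L S0349, S0355, S0377, S0384 and S0385. ET S0242 lay above L S0377 and the groups otherwise did not overlap; the log2 difference was -1.24 ± 0.39 (SE, limma adjusted p = 0.903). PECAM1 was at 34.8 to 109 TPM in ET and at 41.7 to 97.4 TPM in L. The lymphatic vessel gene LYVE1 was at 14.5 to 44.6 TPM in ET and at 17.2 to 84.6 TPM in L. Of 30 collagen and matrix genes 0 passed, with a median of -0.13, and COL3A1 was at 67.5 to 119.9 TPM in ET and at 53.6 to 100.2 TPM in L. Of 35 chemokine and chemokine receptor genes 0 passed, 19 lay above 0 and the median was 0.17, which was -0.08 without L S0384. Of 20 cytokine genes 0 passed (median -0.04), with TGFB1 at 287 to 454 TPM in ET and at 257 to 655 TPM in L.

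Interferon-induced genes marked single animals of both types. Of 43 genes tested 0 passed, 19 lay above 0 and 24 below, and the median was -0.08. The standard errors of this list were wide: 7 of the 43 genes had a 95% interval within 1 log2 unit of 0, or 16.3%, against 79.4% of all genes tested. MX1, an antiviral GTPase, was at 36.7, 589, 133 and 138 TPM in ET S0242, S0276, S0309 and S0326, against 182, 269, 479, 106 and 91.7 TPM in L S0349, S0355, S0377, S0384 and S0385. IFIT1, which binds foreign RNA, was at 38.8, 664, 68.9 and 61.2 TPM in ET, against 86.9, 237, 308, 53.1 and 27.4 TPM in L. ISG15, a ubiquitin-like modifier, was at 15.2, 278, 37.8 and 37.8 TPM in ET, against 70.6, 126.1, 153, 26.2 and 15.9 TPM in L. For each of the 3 genes ET S0276 was highest, followed by L S0377 and L S0355, and the other 3 ET libraries lay below L S0349.

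The summed TPM of the interferon list was 2498, 11298, 2609 and 2793 in ET S0242, S0276, S0309 and S0326, against 3826, 5609, 8460, 2374 and 2196 in L S0349, S0355, S0377, S0384 and S0385. ET S0276 had the highest value for 30 of the 43 genes (69.8%), where it had the highest value for 14.3% of all genes tested. CXCL10, a chemokine that interferon induces, was at 618 TPM in S0276, against 85.0 to 230 TPM in the other ET libraries and 69.8 to 464 TPM in L. Without S0276 the median of the list was -0.66, and without L S0377 it was 0.26, so the direction of this list depended on which animal was left out. The interferon genes named here were picked after their values were seen.

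Other tissues of S0276 gave high values of the same list. The sum was 4409 TPM in the backfat of S0276, against 621 to 2050 TPM in that of the other 4 ET animals and 424 to 1756 TPM in that of the L animals; the lowest of these, S0355, carried muscle markers. In tenderloin it was 1010 TPM in S0276, against 168 to 453 TPM in the other ET animals and 212 to 397 TPM in the L animals. By library label, S0276 was the highest of 10 animals in lymph, backfat and tenderloin and the second in brain and loin, behind S0355 in both. The loin library of S0355 carried the markers of fat tissue, with 14944 TPM in adipocyte markers and 77.9 TPM in skeletal muscle markers. The interferon list summed to 4881 TPM in that library, above the 4409 TPM in the backfat of S0276. Among libraries with fat markers S0276 was therefore not the highest, and its second place in loin was to such a library. By library label, MX1 was highest in S0276 in lymph, backfat, brain and tenderloin, but the loin library of S0355 held more MX1 than the backfat of S0276. The brain libraries were not all of the same kind, so ranks in brain can compare unlike libraries. S0377 ranked second for the list in lymph, 4th in brain, 7th in loin, 8th in backfat and 9th in tenderloin.

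**Figure D4:**
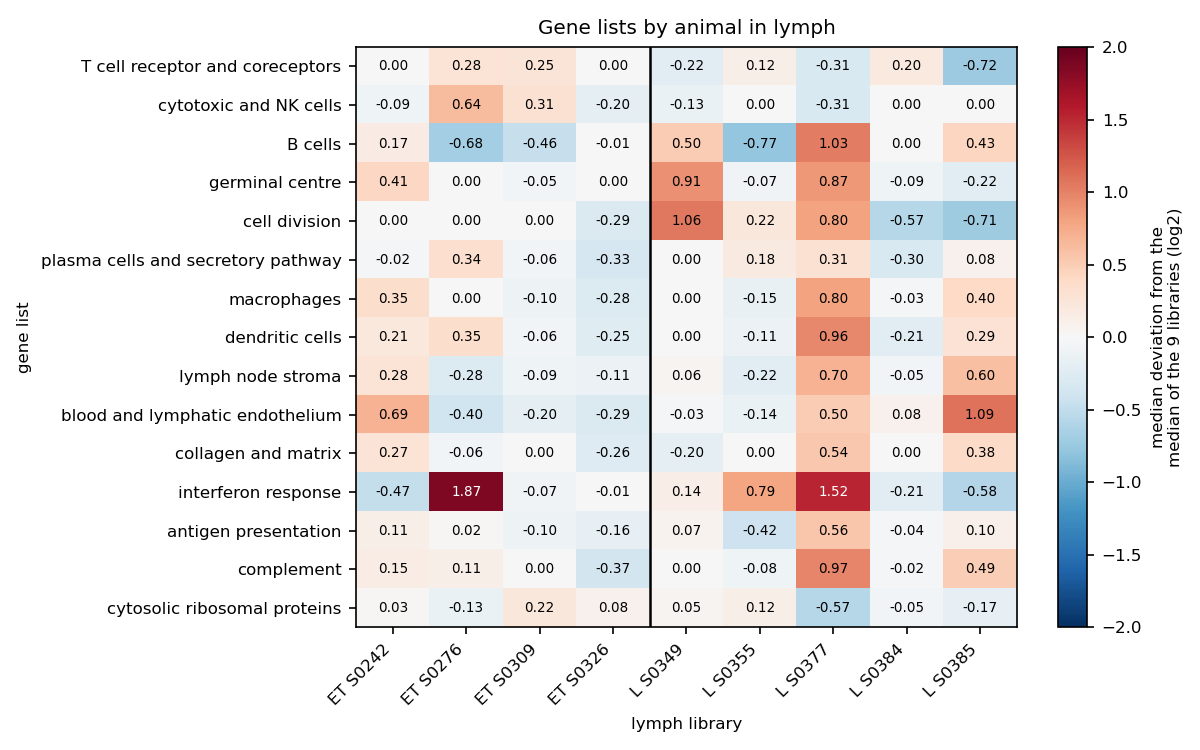
Median log2 deviation of the tested genes of 15 lists in each lymph library from the median of the 9 libraries, with the 4 ET animals left of the black line and the 5 L animals right of it. Interferon response is highest in ET S0276 (1.87) and L S0377 (1.52), cell division in L S0349 (1.06) and B cells in L S0377 (1.03). Red is above the median of the 9 libraries and blue below it.

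The remaining lists gave 0 calls each. Of 72 genes of the cytosolic ribosome tested, 60 lay above 0 with a median of 0.19, and all 72 had a 95% interval within 1 log2 unit of 0; L S0377 held 142315 TPM in the list, against 193699 to 257289 TPM in ET and 190227 to 245291 TPM in the other L libraries. Medians were 0.03 for 32 nuclear genes of the respiratory chain, 0.12 for 9 mitochondrially encoded genes, 0.12 for 19 heat shock and chaperone genes and -0.06 for 16 genes of glycolysis. They were -0.05 for 23 genes of cholesterol synthesis, -0.08 for 18 of lipid handling, -0.15 for 13 of iron handling and -0.18 for 18 of growth hormone and IGF signalling. They were -0.06 for 33 immediate early genes, -0.16 for 28 glucocorticoid and circadian genes and -0.14 for 31 genes of hypoxia, redox and amino acid stress. Complement (21 genes) had a median of -0.22 and pattern recognition (19 genes) of -0.12. Among markers of other tissues the medians were -0.24 for adipocytes (11 genes), -0.25 for kidney (7), 0.33 for skeletal muscle (13), -0.19 for smooth muscle (8), -0.15 for red cells and platelets (9), -0.18 for epithelium (4), -0.11 for thymus and progenitors (3), -0.06 for liver (3) and 0.12 for Y-linked genes (3). The skeletal muscle list summed to 40.3 to 101 TPM in ET and to 31.0 to 57.7 TPM in L. ET S0242 was highest for 6 of the 13 genes tested, and for 4.47% of all genes tested. Without that library the median of the skeletal muscle list was -0.02.

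The most abundant members of these lists named here all had ranges that overlapped between the types, including those given below by their means. GAPDH was at 667 to 797 TPM in ET and at 570 to 821 TPM in L. The ribosomal gene RPLP1 was at 11953 to 16386 TPM in ET and at 8441 to 15928 TPM in L. The ferritin light chain gene FTL was at 1977 to 2300 TPM in ET and at 2117 to 2800 TPM in L. APOE, a carrier of lipids, averaged 552 TPM in ET and 860 TPM in L, a log2 difference of -0.59, and TXNIP, which restrains glucose uptake, 126.3 TPM in ET and 200.4 TPM in L, a difference of -0.65. ATF4, a transcription factor of the stress response, averaged 234.6 TPM in ET and 299.9 TPM in L, a difference of -0.35. The lipase gene PNPLA2 averaged 16 TPM in ET and 24.2 TPM in L, a difference of -0.57, and the troponin gene TNNI2 16.7 TPM in ET and 9.06 TPM in L, a difference of 0.73. None passed in limma. PDK4, a kinase that restrains glucose oxidation and is induced by fasting and glucocorticoids, was picked after its values were seen: it was at 3.34, 1.53, 2.13 and 0.807 TPM in ET S0242, S0276, S0309 and S0326, against 2.16, 6.29, 8.18, 6.89 and 31.4 TPM in L S0349, S0355, S0377, S0384 and S0385. ET S0242 and L S0349 overlapped, and the log2 difference was -1.66 ± 0.52 (SE, limma adjusted p = 0.903).

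Histone entries, a group formed after the values were seen, lay mostly below 0. Of 32 entries of histones H1, H2A, H2B, H3 and H4 tested 0 passed, 25 had a difference below 0 and the median was -0.55; 7 had every ET library below every L library, as 0.583% of all genes tested did. The H2B1B entry was at 1.87, 2.78, 2.39 and 2.94 TPM in ET S0242, S0276, S0309 and S0326, against 4.79, 12.6, 8.07, 11.7 and 5.40 TPM in L S0349, S0355, S0377, S0384 and S0385, a log2 difference of -1.37 ± 0.29 (SE, limma adjusted p = 0.840). L S0355 had the highest value for 14 of the 32 entries, and for 2.92% of all genes tested. Histone genes are near-identical copies, so reads can be divided between entries; summed over all 32, ET libraries held 1824 to 2430 TPM and L libraries 1675 to 2806 TPM, and the sums overlapped.

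The difference between types in lymph was then tested against that in backfat, loin and tenderloin of the same animals. Brain did not enter, because its libraries were not all of the same kind. The quantity is the log2 difference, ET minus L, in lymph minus the mean of the same difference in the other 3 tissues, from which the backfat and loin libraries of S0355 were left out because their markers were those of muscle and of fat. Of 14837 genes tested, 70 passed in limma (0.472% called). In 68 of them the value was below 0, meaning a lower ET-minus-L difference in lymph than elsewhere, and in 2 it was above. With the animal as a replicate block, since the same animals gave all tissues, 165 genes passed, 151 below and 14 above 0; these included 69 of the 70.

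The gene with the smallest p was SPARC. SPARC, which binds collagen in the matrix, was at 51.5 ± 12.2 TPM in ET lymph and 64.7 ± 6.51 TPM in L lymph (SD, n = 4 and 5), a log2 difference of -0.35. In backfat it was at 5291 ± 2301 TPM in ET and 501 ± 258 TPM in L (n = 5 and 4), a difference of 3.39. The value for the contrast was -2.43 ± 0.38 (SE, limma adjusted p = 0.00466). In lymph the ranges of 37.3 to 63.7 TPM in ET and 55.1 to 72.4 TPM in L overlapped; in backfat they did not.

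SERPINH1, the chaperone of collagen, was at 34.0 ± 4.12 TPM in ET lymph and 41.8 ± 9.13 TPM in L lymph, and at 411 ± 139 TPM in ET backfat and 67.9 ± 22.3 TPM in L backfat. Its contrast was -1.85 ± 0.32 (SE, limma adjusted p = 0.00936). LUM, a matrix proteoglycan, was at 30.7 ± 16.6 TPM in ET lymph and 30.5 ± 6.04 TPM in L lymph, against differences of 2.75 log2 units in backfat and 1.43 in tenderloin. COL5A2, a fibril collagen, differed by -0.05 in lymph, 2.90 in backfat and 1.11 in tenderloin. COL21A1 and SVEP1, a minor collagen and an adhesion protein of the matrix, differed by -0.58 and 0.04 in lymph. PLIN1, the coat protein of fat droplets, was at 0.984 ± 0.22 TPM in ET lymph and 1.70 ± 0.89 TPM in L lymph, and at 772 ± 284 TPM in ET backfat and 43.8 ± 33.7 TPM in L backfat. Of 30 genes of collagen and matrix tested 8 passed, all below 0 and among them COL1A1, COL1A2 and COL3A1, and of 19 adipocyte genes 2 passed, PLIN1 and AOC3; with the block the counts were 9 and 3. Of all genes tested 0.472% passed, and 1.11% with the block. In lymph alone 11 of the adipocyte genes had a mean of at least 1 TPM, and the others entered the contrast through the other tissues.

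The remaining leading genes were PSPH, PENK and TTC7B. PSPH, the last enzyme of serine synthesis, differed by -0.12 in lymph, 3.27 in backfat and 1.37 in tenderloin. PENK, the precursor of enkephalins, was at 0.467 TPM on average in ET lymph and 0.510 TPM in L lymph. It differed by 0.02 in lymph and 4.56 in backfat. TTC7B, a subunit of the complex that brings a lipid kinase to the plasma membrane, was the leading gene whose lymph values did not overlap: 4.30, 1.93, 2.81 and 3.49 TPM in ET S0242, S0276, S0309 and S0326, against 9.09, 4.998, 5.38, 6.27 and 10.8 TPM in L S0349, S0355, S0377, S0384 and S0385. Its lymph difference was -0.99 (limma adjusted p = 0.903) and its differences elsewhere were 1.25 in backfat, -0.32 in loin and 0.15 in tenderloin. Its contrast was -1.35 ± 0.25 (SE, limma adjusted p = 0.0158); it did not pass against loin alone (limma adjusted p = 0.221) or with median-ratio scaling (0.0595). The 2 genes above 0 were CNK3/IPCEF1, at 0.87 ± 0.20, and the translation factor gene EIF3H, at 0.82 ± 0.20 (SE, limma adjusted p = 0.0414 and 0.0497), and they were chosen after their values were seen. VPREB3 was the 1 of 21 B cell genes that passed, at -1.54 ± 0.36 (SE, limma adjusted p = 0.0414), with 2 B cell genes below 0 under the block. Of 30 of the histone entries grouped after their values were seen 5 passed, all below 0, where 0.472% of all genes passed. The contrast holds the same lymph values that were seen when the group was formed, so this count is no separate support. PENK and SVEP1 had a mean under 1 TPM in lymph and were not among the genes tested there alone. They entered the contrast through the other tissues, since its filter took the mean over all libraries of the fit. In log2(TPM + 1) the lymph difference of such genes can move little from 0. Their contrast therefore mostly restates the difference in the other tissues. PSPH, COL21A1 and PLIN1 were also low in lymph, with group means of 0.940 to 1.93 TPM. With a pseudocount of 0.1 in place of 1 their contrasts were -3.45, -2.87 and -2.66, against -2.41, -1.60 and -2.09.

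**Figure D5:**
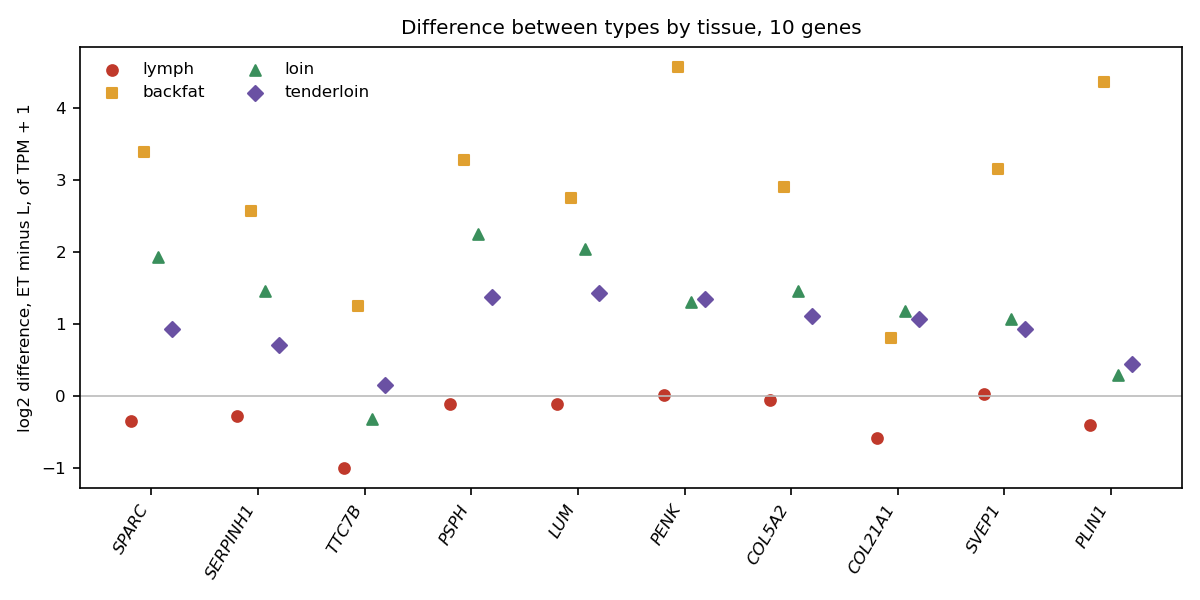
Log2 difference, ET minus L, of TPM plus 1 in lymph (red circles), backfat (orange squares), loin (green triangles) and tenderloin (purple diamonds) for the 10 genes with the smallest p in the contrast of lymph with the other 3 tissues. Lymph lies between -0.99 and 0.04 and is the lowest of the 4 tissues for each of the 10 genes, and backfat reaches 4.56 for PENK.

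Fat and matrix markers did not overlap between the types in backfat, and neither did matrix markers in tenderloin. Adipocyte markers summed to 11935 to 27139 TPM in ET backfat and 1591 to 10212 TPM in L backfat, to 1004 to 1235 TPM in ET loin and 798 to 1221 TPM in L loin, to 687 to 917 TPM in ET tenderloin and 664 to 1171 TPM in L tenderloin, and to 401 to 744 TPM in ET lymph and 412 to 1223 TPM in L lymph. Collagen and matrix genes summed to 13508 to 44172 TPM in ET backfat and 2876 to 7083 TPM in L backfat, to 378 to 1585 TPM in ET loin and 295 to 486 TPM in L loin, to 882 to 1358 TPM in ET tenderloin and 495 to 629 TPM in L tenderloin, and to 500 to 795 TPM in ET lymph and 499 to 843 TPM in L lymph. In lymph most of the adipocyte sum was CFD, which is also a complement gene. CFD was at 352 to 682 TPM in ET lymph and at 359 to 1128 TPM in L lymph. The part of fat and matrix markers in the contrast was not tested. Against backfat alone 879 genes passed (5.89% called), against loin alone 373 (2.56%) and against tenderloin alone 0 (0%) in limma, with 1600 at an unadjusted p under 0.05. The count of 70 was 4 without L S0377, 5 without ET S0326, 7 without ET S0276, 18 without L S0385, 19 without ET S0309, 44 without L S0384 and 333 without L S0355. With the doubted libraries of S0235 and S0355 kept in, 2 genes passed, both below 0. Median-ratio scaling gave 25, and the median contrast over all genes was then -0.05, against -0.16 without it.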

How the data were processed

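RNA was extracted with TRIzol and libraries were made with a TruSeq stranded mRNA kit, per the labels' protocols. The authors deposited 1 table of TPM values for 57085 assembled transcripts in 50 libraries with protein matches per transcript. The submitters' processing notes name Trimmomatic 0.36, Salmon 1.10.0 and the build Sscrofa11.1, whose role these sources do not state. TPM keeps no read depth, so counting error is unknown. No column was left unmapped (0).

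TPM were summed over transcripts with the same Swiss-Prot best match (BLASTX E value at most 1e-10): 32148 transcripts were used, while 20601 had no match, 1864 a weak one, 2429 a repeat protein and 43 a match outside animals. Entries were tested as log2(TPM + 1), which understates changes of low genes, with limma 3.58.1 (R 4.3.3, intensity trend) where the mean was at least 1 TPM; p-values were adjusted over all genes tested by Benjamini-Hochberg at 0.05. Composition was tested with exact permutations (scipy 1.17.1). The contrast with other tissues was 1 fit over lymph, backfat, loin and tenderloin. Same-numbered libraries come from the same animal, and their deviations from group means correlated with a median of 0.203 over 25 pairs, against -0.065 over 100 pairs of different animals.

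The members and the 41 gene lists were chosen with earlier results of these data known. Of 974 list genes, 876 matched an entry. Genes named are the 5 with the smallest p in each direction, the most abundant 2 members of a list, cell type markers and the leading 10 of the contrast, not all of which are described; others are said to be picked after their values were seen. The fits were tested on simulated data. Alternatives covered the pseudocount, filter, scaling, entry sums, E value, limma settings, the replicate block and leaving out each library.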

Additional observations from a re-analysis of the deposited data

Results flagged for a closer look

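Within a type, 342 groups of 4 or 5 animals were checked for 1 library far from the rest, and 20 were picked out; by chance such a check picks out about 1 in 20 groups. TTYH2 (the lower entry) was at 2.99 TPM in L S0355, against 12.4 to 18.6 TPM in the other L libraries. ET S0276 stood out for the interferon-induced IFIT3 at 282 TPM and OAS1 at 154 TPM, against 24.1 to 30.3 TPM and 7.69 to 11.3 TPM in the other ET libraries. It also stood out for MZB1 (322 TPM), TNFRSF17 (37.1 TPM), LAMP3 (44.8 TPM) and MYBL2 (21.7 TPM) on the high side and for IDI1 (31.6 TPM) on the low side.

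ET S0242 was apart for S1PR2 (16.7 TPM) and CCL14 (22.2 TPM), and ET S0326 for CD79A (379 TPM), all on the high side. Among the L libraries, S0385 was low for TOX (10.03 TPM, against 25.6 to 28.2 TPM) and CD3D (68.8 TPM) and high for GPX4 (411 TPM) and TAGLN (153 TPM, against 56.0 to 71.6 TPM). L S0355 was high for TNFRSF17 (41.2 TPM) and low for PAX8 (3.31 TPM). The mitochondrial gene MT-CO3 was at 2175 TPM in L S0377, against 13619 to 16015 TPM in the other L libraries. The Y-linked KDM5D was at 1.87 TPM in L S0349, against 29.0 to 55.5 TPM in the other L libraries. It was at 4.69, 39.9, 33.3 and 3.89 TPM in ET S0242, S0276, S0309 and S0326. A second KDM5D entry held 11.6 TPM on average. USP9Y was listed at 0 TPM in L S0377, against 15.4 to 29.9 TPM in the other L libraries.

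The type difference in lymph differed from the mean of that in the other 3 tissues for the 10 leading genes of that contrast. Against tenderloin alone 0 of the 9 with a value passed (limma adjusted p from 0.0982 to 0.286), against loin alone 4 of 9, and against backfat alone 10 of 10. On the log2 scale the contrast was -2.43 for SPARC, -1.85 for SERPINH1, -1.35 for TTC7B, -2.41 for PSPH and -2.18 for LUM. It was -2.39 for PENK, -1.88 for COL5A2, -1.60 for COL21A1, -1.68 for SVEP1 and -2.09 for PLIN1. IFIT3, OAS1, S1PR2, CCL14, MYBL2, KDM5D and USP9Y were picked after their values were seen. In the library of ET S0235 that was left out, UMOD was at 2156 TPM and AQP2 at 337 TPM.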

How the results depend on the processing

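Of 22 alternatives of the lymph test, 13 called 0 genes (294 to 1793 genes at an unadjusted p under 0.05 over all 22) and 9 called 1 or 2. The rat-named PLEKHF1 entry was the 1 gene called, lower in ET, with a pseudocount of 0.1, median-ratio scaling, 1 transcript per gene, an E value of at most 1e-50, no intensity trend or array weights. Without a filter 2 genes passed, 1 higher and 1 lower. Leaving out a library gave 0 to 2 calls, all lower: 1 without ET S0309 and 2 without L S0355. Merging entries of the same name gave 0 calls and turned CNEP1R1 to 0.25. With the library of S0235 included the medians were -0.81 for T cell genes and -1.51 for B cell genes, and 20 of the 42 list medians moved beyond the spread between animals. The contrast with other tissues, 70 genes with 2 above and 68 below 0, gave 165 (14 above, 151 below) with the replicate block, 0 above among 50 with a pseudocount of 0.1, 1 above and 46 below among 47 with a filter at 5 TPM, 1 above and 24 below among 25 with median-ratio scaling, and 2, both below, with all libraries. Against backfat alone it gave 879 (87 above, 792 below), against loin alone 373 (268 above, 105 below) and against tenderloin alone 0. Without a single lymph library it gave 4 to 333, with 0 to 13 above and 4 to 320 below. The backfat, loin and leave-out fits of this contrast were chosen after seeing the data. The causes were not tested. TPM keep no depth, so counting limits for low genes are unknown, and 4 against 5 animals limit the precision.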
